A study of Mus musculus with 8 samples.

Results

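The genes described here encode the transforming growth factor-beta (TGF-β) isoforms *Tgfb1*, *Tgfb2* and *Tgfb3*, the receptors *Tgfbr1*, *Tgfbr2* and *Tgfbr3*, and the latent TGF-β binding proteins *Ltbp1*, *Ltbp2*, *Ltbp3* and *Ltbp4*. They were chosen by name, and all 10 were present among the 43346 gene identifiers counted. RNA-Seq libraries were made from notochord-derived cells (NDCs) of *Shh-cre*;ROSA:YFP mice, with 4 litters at embryonic day 12.5 (E12.5) and 4 litters at postnatal day 0 (P0), and the animals of each litter were pooled into 1 sample. Both stages carried the same alleles: Cre recombinase from the *Shh* locus turned on yellow fluorescent protein (YFP) in cells that had expressed *Shh* and in their descendants, which include the notochord and also the floor plate of the neural tube. At E12.5 whole notochords were dissected by hand and put straight into lysis reagent without sorting, whereas at P0 the nucleus pulposus (NP) cells of thoracic and lumbar discs were shaken loose without enzymes and YFP-positive cells were sorted. Stage and isolation method therefore cannot be told apart in any comparison below.

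TGF-β is a secreted growth factor made as a precursor whose amino-terminal part, the latency-associated peptide, stays wrapped around the mature dimer and holds it inactive. In most cells this small latent complex is joined to a latent TGF-β binding protein, which ties it to fibrillin and fibronectin in the matrix, and integrins release the ligand by pulling on the latency-associated peptide. The free ligand binds TGFBR2, which recruits and phosphorylates TGFBR1, and TGFBR1 then activates SMAD2 and SMAD3. The pathway is known to be needed for formation of the intervertebral disc and for growth of its matrix.

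The isoforms differ in how they can be released, and the stretch of the latency-associated peptide that shows this is shown because it separates the isoforms whose levels follow. Each line holds 69 coding bases of GENCODE M21 on GRCm38, 5′ to 3′, with the codons of the integrin-binding arginine-glycine-aspartate triplet in capitals. In *Tgfb2* the capitals mark the aligned codons, which do not encode that triplet.
Tgfb1: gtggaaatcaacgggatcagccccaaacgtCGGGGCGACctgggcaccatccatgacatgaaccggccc
Tgfb2: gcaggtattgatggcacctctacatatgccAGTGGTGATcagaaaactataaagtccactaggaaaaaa
Tgfb3: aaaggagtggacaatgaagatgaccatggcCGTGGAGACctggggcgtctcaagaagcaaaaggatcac
Each window spans an exon junction, between exons 4 and 5 of 7 for *Tgfb1* (chr7:25696983-25697180, plus strand), exons 5 and 6 of 8 for *Tgfb2* (chr1:186630723-186632461, minus strand) and exons 4 and 5 of 7 for *Tgfb3* (chr12:86062135-86063824, minus strand). The coding sequences hold 390, 442 and 412 codons in the same order. Across the 112 codons of the mature ligand, 77.7% encoded the same residue in *Tgfb1* and *Tgfb3*, 78.6% in *Tgfb2* and *Tgfb3*, and 72.3% in *Tgfb1* and *Tgfb2*. The share of identical bases over the same stretch was 68.8% to 73.5%.

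Reads counted on genes numbered 4442775 to 7180221 in the E12.5 litters and 6371842 to 8904050 in the P0 litters, at which 3 counts equal 0.353 to 0.738 CPM, that is, counts scaled to the normalized library total. This floor covers counting error only. Of the 15467 genes tested, 27.9% were called at an adjusted p under 0.05, with 16.0% higher and 12.0% lower at P0 (edgeR's quasi-likelihood test, Benjamini-Hochberg adjustment). The notochord gene *T* was counted in every litter at 242 to 942 CPM at E12.5, against 574 to 2323 CPM at P0, whereas *Noto* was at most 0.195 CPM at the earlier stage and 0.433 CPM at the later one. Some litters stood apart in markers of other cells. The P0 litter NPD30 had a summed leukocyte marker level of 393 CPM against 3326 to 4445 CPM in the other P0 litters and 65.4 to 131 CPM at E12.5. The P0 litter NPD28 had 6678 CPM of neutrophil markers against 764 to 973 CPM in the other P0 litters. At E12.5, NPD4 had 1725 CPM of neural markers against 164 to 277 CPM, and NDP10.2 and NPD9.2 had 612 and 734 CPM of fetal liver markers against 44.9 and 223 CPM in NPD3 and NPD4.

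Between E12.5 and P0, mRNA abundance of *Tgfb1* and *Tgfbr2* was higher, that of *Ltbp4* was lower, and the other 6 genes tested did not pass the threshold. The remaining gene, *Ltbp2*, was left out by the filter on low counts. The 3 calls make up 33.3% of the 9 genes tested, beside 27.9% of all genes tested, and the median log2 fold change of the 9 was 0.20 beside 0.04 over all genes. Among the 9, *Tgfb1* and *Tgfbr2* had litters that did not overlap between stages, both higher at P0, as did 29.9% of all genes tested (15.5% with P0 above).

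**Figure D1:**
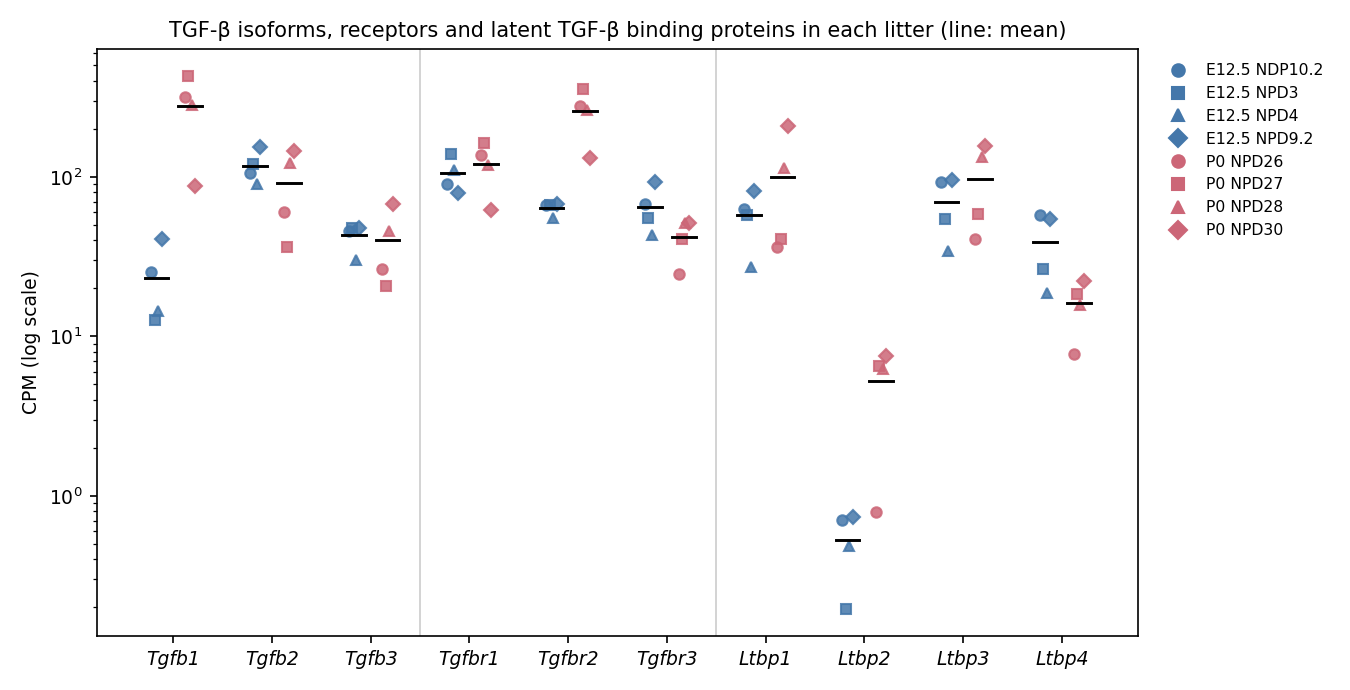
CPM of the 10 genes in each litter on a log scale, with E12.5 in blue, P0 in red, a different marker shape for each litter of a stage and a black line at the mean of 4 litters. The P0 points of *Tgfb1* (88.2 to 430 CPM) and *Tgfbr2* (131 to 357 CPM) lie above all E12.5 points, while the stages overlap for *Tgfb2*, *Tgfb3*, *Tgfbr1*, *Tgfbr3*, *Ltbp1*, *Ltbp3* and *Ltbp4*.

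*Tgfb1* (ENSMUSG00000002603.11, chr7:25687002-25705077, plus strand, GRCm38), the isoform best known from platelets, immune cells and bone matrix, had the largest fitted change of the 9 genes tested. It was counted at 25.2 CPM in NDP10.2, 12.7 in NPD3, 14.5 in NPD4 and 40.6 in NPD9.2, all E12.5, and at 317 CPM in NPD26, 430 in NPD27, 282 in NPD28 and 88.2 in NPD30, all P0. Litter values of the other genes follow in this order. The lowest P0 litter, NPD30, was still above the highest E12.5 litter. At E12.5 the mean was 23.3 ± 12.8 CPM and at P0 it was 279 ± 142 CPM (SD over 4 litters), a 12.1-fold difference with a log2 fold change of 3.59 (SE 0.54, 95% interval 2.40 to 4.78, edgeR adjusted p = 0.00112). With any 1 litter left out the log2 fold change lay between 3.32 and 3.96 and stayed past the threshold.

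*Tgfb2* (ENSMUSG00000039239.10, chr1:186622792-186705989, minus strand), an isoform with known roles in heart, skeletal and craniofacial development, was measured at 106, 120, 90.1 and 154 CPM at E12.5. At P0 it was measured at 60.5, 36.6, 123 and 146 CPM. NPD26 and NPD27 lay below all E12.5 litters, and NPD28 and NPD30 lay within the E12.5 range. The log2 fold change of -0.36 (95% interval -1.23 to 0.52, edgeR adjusted p = 0.544) leaves room for a difference in either direction.

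*Tgfb3* (ENSMUSG00000021253.6, chr12:86056745-86079041, minus strand), the isoform needed for fusion of the palate, had the smallest fitted change of the 9. The E12.5 litters were at 46, 48, 30.2 and 47.9 CPM and the P0 litters at 26.6, 20.6, 46 and 67.6 CPM. As for *Tgfb2*, NPD26 and NPD27 were the lowest litters, and for *Tgfb3* NPD30 was the highest litter of either stage. The log2 fold change was -0.10 (95% interval -0.88 to 0.69, edgeR adjusted p = 0.872), and its sign turned without NPD26 (0.07) or without NPD27 (0.13).

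Gene length has to be taken into account before the isoforms are set against each other, so levels were also expressed as CPM per kb of merged exons. At E12.5 *Tgfb2* was the most abundant isoform per kb, at 20.3 ± 4.67, followed by *Tgfb3* at 12.7 ± 2.54 and *Tgfb1* at 4.61 ± 2.54 (SD, n = 4). At P0 *Tgfb1* stood at 55.4 ± 28.2, *Tgfb2* at 15.8 ± 8.9 and *Tgfb3* at 11.9 ± 6.28 CPM per kb (SD, n = 4). *Tgfb1* took 13.5%, 6.73%, 10.5% and 16.5% of the summed isoform level of the E12.5 litters, and 77.4%, 87.3%, 61.6% and 27.9% of that of the P0 litters. These shares did not overlap between the stages, but NPD30 alone among the P0 litters still had more *Tgfb2* (40.3%) and *Tgfb3* (31.8%) than *Tgfb1*. The ratio of *Tgfb1* to *Tgfb2* per kb was 0.122 to 0.303 at E12.5 and 6.01, 13.5, 2.64 and 0.692 at P0. The ratio of *Tgfb2* to *Tgfb3* was 1.35 to 1.87 at E12.5 and overlapped that at P0, which was 1.04 to 1.56. The summed isoform level was 27.4 to 48.8 CPM per kb at E12.5, against 62.8 to 97.7 CPM per kb at P0. With the longest transcript as the length, the mean *Tgfb1* share at E12.5 was 19.4%, and *Tgfb1* was the leading isoform in all P0 litters, NPD30 included (41.4%, beside 34.5% for *Tgfb2*).

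**Figure D2:**
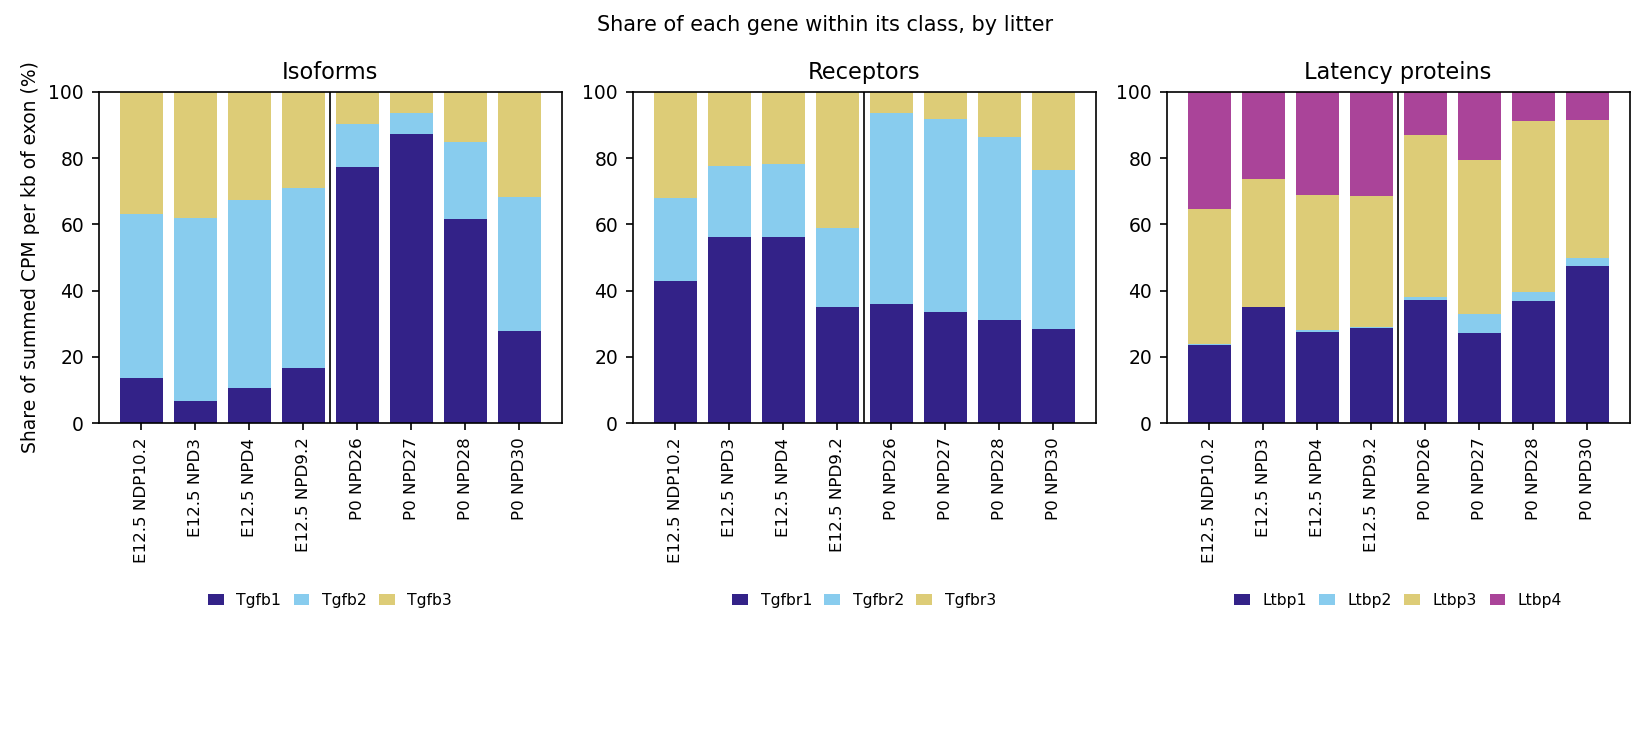
Share of each gene in the summed CPM per kb of merged exons of its class, as stacked bars to 100%, for the isoforms, the receptors and the latency proteins in each litter, with a vertical line between the E12.5 and P0 litters. The *Tgfb1* share was 6.73% to 16.5% at E12.5, against 27.9% to 87.3% at P0, and the *Tgfbr2* share was 21.4% to 25.3% at E12.5, against 48% to 58.3% at P0.

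Among the receptors, *Tgfbr2* (ENSMUSG00000032440.8, chr9:116084293-116175360, minus strand), which encodes the type II receptor kinase that binds the ligand, was higher at P0. The E12.5 litters were close together at 66.8, 66.7, 55.2 and 67.9 CPM, and the P0 litters were at 279, 357, 263 and 131 CPM. As for *Tgfb1*, NPD27 was highest and NPD30 lowest at P0, and no P0 litter reached down to the E12.5 range. The means were 64.2 ± 5.96 CPM and 257 ± 93.8 CPM (SD, n = 4), a 4.01-fold difference with a log2 fold change of 2.01 (SE 0.30, 95% interval 1.34 to 2.67, edgeR adjusted p = 0.001). Without any 1 litter it stayed past the threshold, at 1.82 to 2.19.

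*Tgfbr1* (ENSMUSG00000007613.11, chr4:47353222-47414931, plus strand) encodes the type I receptor kinase that passes the signal to SMAD2 and SMAD3. Its level was 90.3, 140, 111 and 78.9 CPM at E12.5 and 138, 163, 119 and 61.9 CPM at P0. NPD30 was below all other litters, and the other 3 P0 litters lay within or just above the E12.5 range. The log2 fold change was 0.20 (95% interval -0.49 to 0.88, edgeR adjusted p = 0.684).

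*Tgfbr3* (ENSMUSG00000029287.10, chr5:107106570-107289629, minus strand) encodes betaglycan, a coreceptor that presents TGF-β2 in particular to the signaling receptors. It was at 67.5, 55.6, 43.2 and 92.9 CPM at E12.5 and 24.5, 40.8, 51.7 and 51.4 CPM at P0. NPD26 and NPD27 were below all E12.5 litters, and NPD28 and NPD30 overlapped them. The log2 fold change of -0.62 did not pass the threshold (95% interval -1.30 to 0.06, edgeR adjusted p = 0.162).

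Per kb, *Tgfbr1* was the leading receptor in 3 of 4 E12.5 litters and *Tgfbr2* in all 4 P0 litters. *Tgfbr2* made up 21.4% to 25.3% of the summed receptor level at E12.5 and 48% to 58.3% at P0, with no overlap. The ratio of *Tgfbr2* to *Tgfbr1* was 0.59, 0.38, 0.396 and 0.686 at E12.5 and 1.61, 1.75, 1.77 and 1.69 at P0. The P0 litters, which differed widely in the level of either receptor, thus had nearly the same ratio, NPD30 included. *Tgfbr3* had its smallest share, 6.35%, in NPD26, and its share in NPD30 (23.6%) lay within the E12.5 range of 21.7% to 41.1%.

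Of the latency proteins, *Ltbp1* (ENSMUSG00000001870.11, chr17:75005568-75392512, plus strand), which binds the latent complexes of all isoforms, was at 63.2, 58.1, 27.1 and 81.9 CPM at E12.5 and at 36.5, 40.7, 113 and 208 CPM at P0. NPD26 and NPD27 lay within the E12.5 range, and NPD28 and NPD30 lay above it. The log2 fold change was 0.79 (95% interval -0.45 to 2.04, edgeR adjusted p = 0.327) and dropped to 0.10 without NPD30.

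*Ltbp3* (ENSMUSG00000024940.10, chr19:5740904-5758532, plus strand), which also binds the latent complexes of all isoforms and is known for its part in tooth and bone growth, had the same order of litters at P0. It was at 92.5, 54.4, 34.3 and 95.7 CPM at E12.5 and at 40.7, 58.5, 134 and 156 CPM at P0. The log2 fold change was 0.49 (95% interval -0.53 to 1.52, edgeR adjusted p = 0.468).

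*Ltbp4* (ENSMUSG00000040488.12, chr7:27305136-27337692, minus strand), which binds latent TGF-β1 and takes part in elastic fiber assembly, was the member called lower. It was at 57.3, 26.3, 18.6 and 54.3 CPM at E12.5 and 7.71, 18.5, 15.8 and 22.3 CPM at P0. NDP10.2 and NPD9.2 were well above all P0 litters, whereas NPD3 and NPD4 were close to them and NPD4 lay below NPD30. The means were 39.2 ± 19.6 and 16.1 ± 6.18 CPM (SD, n = 4), with a log2 fold change of -1.28 (SE 0.42, 95% interval -2.21 to -0.34, edgeR adjusted p = 0.0442). The call ended with any of 5 litters left out, given here with the log2 fold change and adjusted p without it: NDP10.2 (-1.08, edgeR adjusted p = 0.111), NPD9.2 (-1.11, 0.109), NPD26 (-1.04, 0.0999), NPD27 (-1.34, 0.0724) or NPD28 (-1.26, 0.0889). Without NDP10.2 and NPD9.2 together the log2 fold change was -0.52 (edgeR adjusted p = 0.442). These are also the litters with the highest fetal liver and erythroid marker levels, and the part of those cells in the *Ltbp4* level was not tested.

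*Ltbp2* (ENSMUSG00000002020.11, chr12:84783212-84876532, minus strand) encodes a family member that does not bind latent TGF-β and is found on fibrillin microfibrils. It had 3, 1, 4 and 3 counts at E12.5, about the floor, and 5, 45, 53 and 50 counts at P0. NPD26 was therefore at 0.786 CPM, just above the highest E12.5 litter at 0.738 CPM, and the other P0 litters were at 6.24 to 7.58 CPM. The summed counts of 11 and 153 gave a ratio of 10.6 (95% interval 5.76 to 21.7, counting error only). Without the filter on low counts its log2 fold change was 3.32 (edgeR adjusted p = 0.000718). In fits of fewer litters it entered the test only through NPD27, NPD28 and NPD30, so those fits are not drawn on.

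Within the class, *Ltbp4* held 26.2% to 35.4% of the summed latency protein level per kb at E12.5 but 8.4% to 20.5% at P0, and these ranges did not overlap with either measure of length. *Ltbp3* held 38.6% to 40.9% at E12.5, against 41.9% to 51.7% at P0, which overlapped once the longest transcript was used as the length. *Ltbp1* held 23.6% to 35% and 27.3% to 47.5%, and *Ltbp2* held at most 0.638% and 5.7%. The ratio of *Ltbp1* to *Ltbp3* was 0.58 to 0.906 at E12.5, against 0.589 to 1.13 at P0. No test was made of the shares and ratios.

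**Figure D3:**
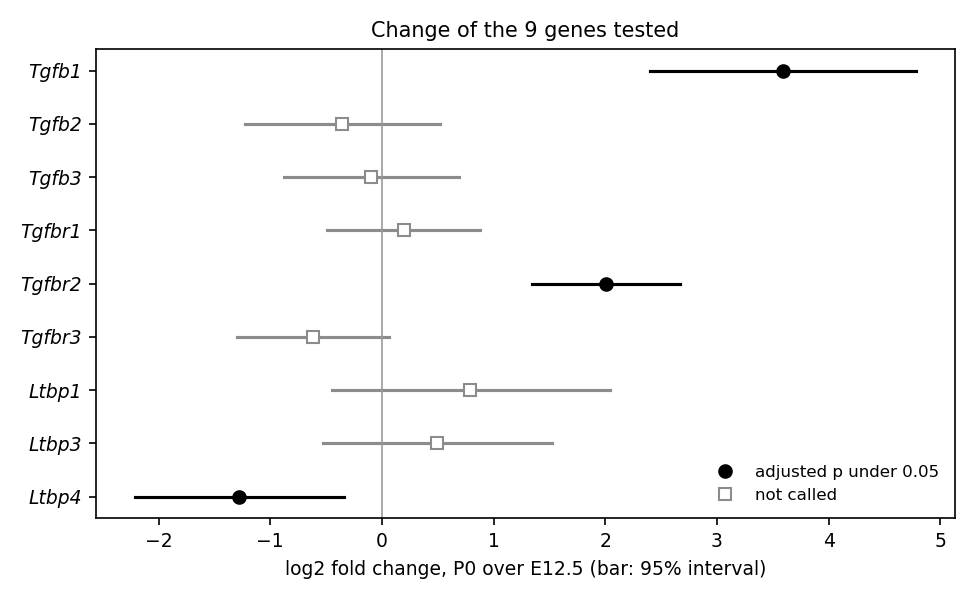
Log2 fold change at P0 over E12.5 for the 9 genes tested, with 95% intervals from the edgeR fit over all genes, filled black where the adjusted p was under 0.05. The intervals of *Tgfb1* (2.40 to 4.78), *Tgfbr2* (1.34 to 2.67) and *Ltbp4* (-2.21 to -0.34) exclude 0.

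Ordered by level per kb, the 10 genes changed places between the stages. At E12.5 the order of the means ran from *Tgfb2* (20.3) through *Tgfbr1* (16.1), *Tgfb3* (12.7), *Tgfbr3* (9.9), *Tgfbr2* (7.84), *Ltbp3* (7.63), *Ltbp4* (6.06), *Ltbp1* (5.39) and *Tgfb1* (4.61) to *Ltbp2* (0.0649 CPM per kb). The litters of each gene overlapped those of the next in this order, except that *Ltbp2* lay below *Tgfb1* in every litter. At P0 the order ran from *Tgfb1* (55.4) through *Tgfbr2* (31.5), *Tgfbr1* (18.5), *Tgfb2* (15.8), *Tgfb3* (11.9), *Ltbp3* (10.7), *Ltbp1* (9.32), *Tgfbr3* (6.43) and *Ltbp4* (2.48) to *Ltbp2* (0.644 CPM per kb). Here *Ltbp4* lay below *Tgfbr3* and *Ltbp2* below *Ltbp4* without overlap, and the ranges of all other neighbours overlapped. Compared within each litter, some overlapping neighbours kept their order throughout. At P0 *Tgfb1* was above *Tgfbr2*, *Tgfbr2* above *Tgfbr1* and *Tgfb2* above *Tgfb3* in every litter, and at E12.5 *Ltbp3* was above *Ltbp4*. *Tgfb1* depends most on the length used, with a mean at E12.5 of 9.04 CPM per kb of its longest transcript.

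The P0 litters were not alike, and most members followed one of 2 orders of these litters. Among P0 litters, *Tgfb1*, *Tgfbr1* and *Tgfbr2* were highest in NPD27 and lowest in NPD30. *Tgfb2*, *Tgfb3*, *Ltbp1* and *Ltbp3* were highest in NPD30, and NPD26 and NPD27 were their lowest P0 litters. *Ltbp2* and *Ltbp4* were also highest in NPD30, but NPD28 did not come second for *Ltbp4* (15.8 CPM) or for *Ltbp2* (6.24 CPM), and both were lowest in NPD26. *Tgfbr3* followed neither order, with 24.5 CPM in NPD26 and nearly equal levels in NPD28 (51.7 CPM) and NPD30 (51.4 CPM). The macrophage markers (7 genes, all called higher at P0) summed to 69.4, 59.1, 66 and 116 CPM at E12.5, and to 4665, 5192, 1678 and 61.4 CPM at P0. The leukocyte markers (14 of 14 called higher at P0) summed to 80.4, 65.4, 78.5 and 131 CPM and to 3326, 3924, 4445 and 393 CPM. Both lists were thus lowest in NPD30 among the P0 litters, where *Tgfb1* and *Tgfbr2* were lowest too. In NPD30 the macrophage sum lay within the E12.5 range. The leukocyte sum there (393 CPM) was above its E12.5 maximum of 131 CPM, and the neutrophil sum (973 CPM) above 15.8 CPM. In the same litter *Tgfb1* at 88.2 CPM was above its E12.5 maximum of 40.6 CPM and *Tgfbr2* at 131 CPM above 67.9 CPM. Of all genes tested, 16.0% were called higher. The leukocyte genes *Cytip*, *Cd48* and *Arhgap15* had at most 4 counts in any E12.5 litter, and *Cd52* had 0 to 9. They passed the filter only through P0 and could not be called lower. *Cd53* (6 counts in NDP10.2), *Itgb2* (8 in NPD4) and the macrophage gene *Adgre1* (6 in NDP10.2) also needed P0 litters to pass. The counts of leukocyte and macrophage calls are therefore not drawn on.

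The notochord markers summed to 3339, 1969, 3796 and 6935 CPM in the P0 litters, the tendon and annulus markers to 479, 423, 1048 and 1457 CPM, and the chondrocyte markers to 1412, 1166, 3851 and 4330 CPM. Among the P0 litters these lists were lowest in NPD27 and highest in NPD30, as were *Tgfb2* and *Tgfb3*. Most of the tendon and annulus sum was *Fmod* alone (456, 403, 1029 and 1415 CPM at P0). Of that list 1 of 4 genes tested was called higher and 1 lower (*Scx*). Most of the chondrocyte sum was *Col2a1* (1031, 923, 3473 and 3664 CPM at P0). Of that list 3 of 6 tested were called higher and 2 lower (*Col9a1* and *Col9a3*). Of the notochord list, 2 of the 8 genes tested were called higher and 2 lower at P0, and *Shh* was at 420 to 1348 CPM at E12.5, against 0.157 to 11.8 CPM at P0. The neutrophil markers (764, 802, 6678 and 973 CPM at P0, 4.01 to 15.8 CPM at E12.5, *Elane* at 0 in all E12.5 litters) were highest in NPD28, where *Tgfb1* was at 282 CPM and so below NPD26 and NPD27. Platelet and megakaryocyte markers (2 of 7 called higher) summed to 111, 37.3, 31.6 and 85.3 CPM at E12.5, where the litters NDP10.2 and NPD9.2 were also the highest for *Tgfb1*. At P0 they summed to 251, 383, 65.9 and 105 CPM. Osteoblast markers (6 of 6 tested called higher, with *Bglap2* and *Dmp1* at 0 in all E12.5 litters) summed to 1075, 1178, 1087 and 1836 CPM at P0 and to at most 248 CPM at E12.5. *Dmp1* and *Ibsp* (0 to 2 counts at E12.5) passed the filter only through P0 and could not be called lower. *Ifitm5* (0 to 9 counts at E12.5), *Alpl* (2 to 15) and *Sp7* (6 to 16) also needed P0 litters to pass. Only *Spp1* did not, so the count of osteoblast calls is not drawn on. Of all genes tested, 16.0% were called higher and 12.0% lower.
The part of these cells in the levels of the TGF-β genes was not tested. In pooled RNA, more cells of one type and more RNA per cell of that type cannot be told apart.

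**Figure D4:**
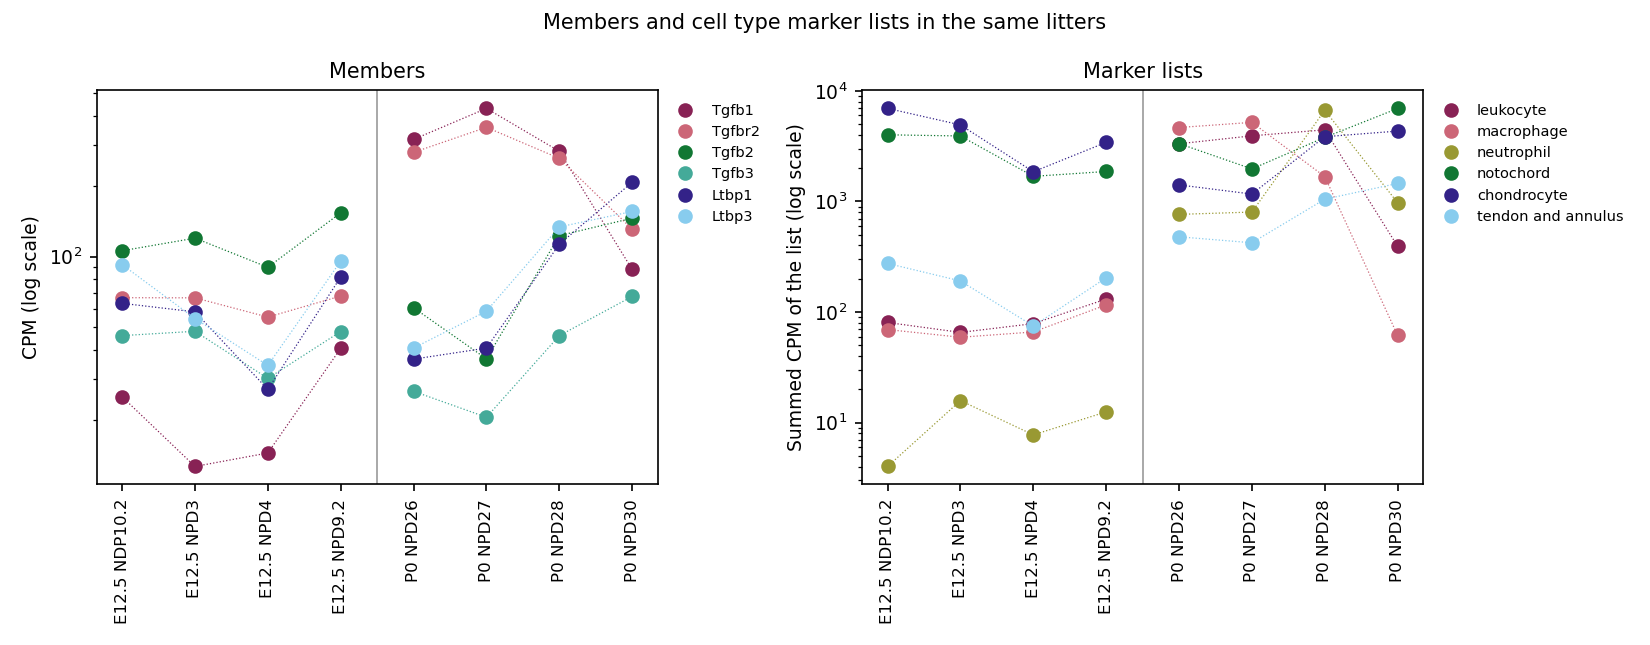
CPM of 6 of the genes (left) and summed CPM of 6 marker lists (right) in each litter, on log scales, with dotted lines that only guide the eye between litters of a stage, which have no order. *Tgfb1*, *Tgfbr2* and the leukocyte and macrophage lists share their lowest P0 litter, NPD30. There the macrophage sum (61.4 CPM) is no higher than at E12.5 (59.1 to 116 CPM), and the leukocyte sum (393 CPM) is higher (65.4 to 131 CPM at E12.5).

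The genes whose pattern over the 8 litters was most like each isoform were found among 8303 genes by the root mean square difference of centred log2 CPM. For *Tgfb1* these were *Zfp36* (0.29), which encodes an mRNA decay factor, *Man2b1* (0.36), a lysosomal mannosidase, *Tlr2* (0.404), a receptor for bacterial lipoproteins, *Plek* (0.411), a protein of platelets and leukocytes, and *Ucp2* (0.433), a mitochondrial carrier. *Tgfbr2* ranked 158 in likeness to *Tgfb1*, with a difference of 0.936. For *Tgfb2* the closest were *Aff3* (0.181), the receptor phosphatase *Ptprk* (0.199), the junction protein *Cgnl1* (0.22), the pseudogene *Ppp4r1l-ps* (0.228) and *Angptl2* (0.235), and *Tgfb3* came at rank 7 (0.253). For *Tgfb3* they included the focal adhesion protein *Parva* (0.13), the collagen crosslinking enzyme *Loxl2* (0.144), *Bicc1* (0.171) and the semaphorin receptor *Plxna2* (0.176). The litters share their depth and cell makeup across all genes, so these distances describe the 8 libraries and carry no test.

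The members' promoters were searched for simple elements. RefSeq (GRCm38.p6) gave 12 start sites for 8 of the 10 genes, and none was listed for *Tgfb3* and *Tgfbr3*. The 250 bases before the start are shown for *Tgfb1* and *Tgfbr2*, the members called higher, and for *Tgfb2*, which was not called, with matches to the GC box core GGGCGG on either strand, or to TATAAA, in capitals.
Tgfb1, chr7:25686752-25687001, plus strand: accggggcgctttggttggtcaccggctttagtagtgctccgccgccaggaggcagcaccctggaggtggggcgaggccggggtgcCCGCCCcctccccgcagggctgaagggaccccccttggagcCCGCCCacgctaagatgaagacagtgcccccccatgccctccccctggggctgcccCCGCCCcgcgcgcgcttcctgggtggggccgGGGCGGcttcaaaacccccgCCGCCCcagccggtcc
Tgfbr2, chr9:116175364-116175613, minus strand: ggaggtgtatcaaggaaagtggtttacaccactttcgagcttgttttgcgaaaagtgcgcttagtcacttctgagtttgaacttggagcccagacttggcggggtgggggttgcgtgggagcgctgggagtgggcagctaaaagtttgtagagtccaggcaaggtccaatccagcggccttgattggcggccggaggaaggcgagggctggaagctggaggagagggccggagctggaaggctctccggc
Tgfb2, chr1:186705990-186706239, minus strand: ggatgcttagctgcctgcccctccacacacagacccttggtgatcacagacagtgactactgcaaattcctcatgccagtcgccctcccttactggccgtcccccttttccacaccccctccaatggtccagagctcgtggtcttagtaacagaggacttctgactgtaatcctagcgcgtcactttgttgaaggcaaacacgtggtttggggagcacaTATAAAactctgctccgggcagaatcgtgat
*Tgfb1* had 5 matches to GGGCGG in a window of 75.2% G and C, *Tgfbr2* had no match to any letters searched (58.4%), and *Tgfb2* had 1 match to TATAAA and none to GGGCGG (53.6%). *Ltbp4*, the member called lower, had 3 start sites with 3, 5 and 7 matches to GGGCGG, the windows of the last 2 overlapping. Searched on both strands, GGGCGG was found in 6 of the 12 windows (4 of the 8 genes), beside 32.7% of 32851 promoters of the same length. TATAAA was found in 1 window, beside 12.4% of promoters. TGANTCA, the AP-1 element, was found in 0 windows, beside 6.75% of promoters. The matches describe letters and not binding.

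Other genes of the pathway were grouped by role into 5 lists with 49 genes, all of which were tested. Of these, 12 were called higher and 8 lower at P0, which is 40.8% beside 27.9% of all genes tested, with a median log2 fold change of 0.13. The 12 include *Lrg1* and *Cdkn2b*, which needed the P0 litters to pass the filter on low counts, so this share is not drawn on.

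**Figure D5:**
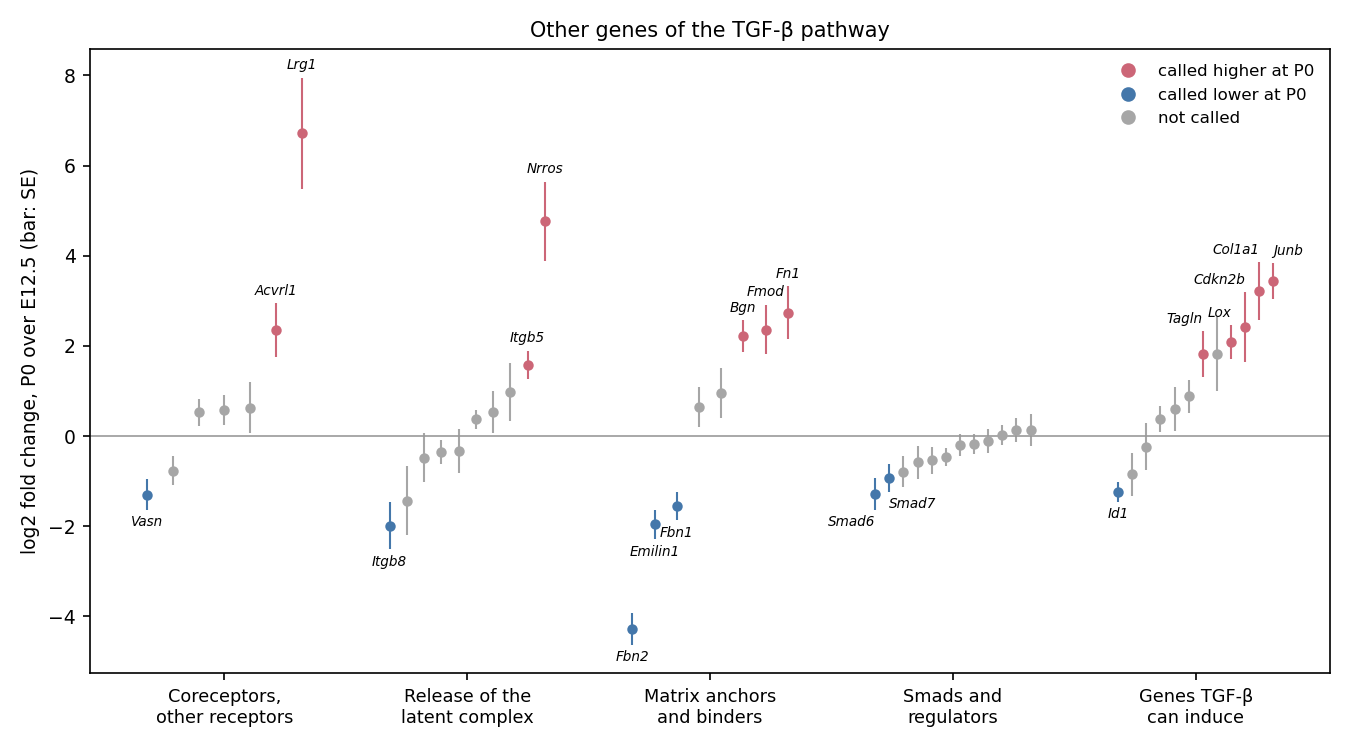
Log2 fold change at P0 over E12.5, with its SE, of each gene of the 5 lists, coloured red or blue where called higher or lower at an edgeR adjusted p under 0.05 and grey where not called. Calls in both directions appear in the first 3 lists and among the induced genes, and only lower calls (*Smad6* and *Smad7*) among the Smads.

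Among 7 coreceptors and other receptors, 2 were called higher and 1 lower, and 4 did not pass (42.9% called, beside 27.9% of all genes tested, median log2 fold change 0.58). This share includes *Lrg1*, whose call is set aside below. *Acvrl1*, a type I receptor best known from endothelium, was at 4.25, 1.56, 4.96 and 5.9 CPM at E12.5 and 20.4, 25.2, 34.8 and 4.7 CPM at P0. NPD30 lay within the E12.5 range, and the log2 fold change was 2.35 (edgeR adjusted p = 0.0124), a call that limma-voom did not make (2.18, adjusted p = 0.0714). *Vasn*, which encodes the TGF-β binding membrane protein vasorin, was lower at P0, at 12.4 to 31.3 CPM against 30.7 to 69.6 CPM (log2 fold change -1.30, edgeR adjusted p = 0.0143). *Lrg1*, a secreted glycoprotein of endothelium and neutrophils that acts on TGF-β receptors, had 3 counts in all at E12.5 and 515 at P0, a ratio of 131 (95% interval 44.5 to 637, counting error only). It was highest in NPD28, at 44.4 CPM, the litter with the highest neutrophil marker sum, which held 377 of the P0 counts. *Lrg1* passed the filter on low counts only through the P0 litters (10, 87, 377 and 41 counts), so its call is not drawn on. Its fitted log2 fold change was 6.72, and it was 5.47 without NPD28 and 7.40 without NPD4. *Eng*, *Cd109*, *Bambi* and *Tgfbrap1* did not pass. Endothelial markers summed to 88.2 to 179 CPM at E12.5, against 36.4 to 133 CPM at P0, with 2 of 8 called lower, beside 12.0% of all genes tested.

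Of the 10 genes that anchor, process or release the latent complex, 2 were called higher, 1 lower and 7 not (30% called, beside 27.9% of all genes tested, median 0.02). *Nrros*, which anchors latent TGF-β on macrophages and microglia, was at 4.95, 5.85, 4.96 and 11.1 CPM at E12.5 and 216, 335, 162 and 9.1 CPM at P0. It was thus within the E12.5 range in NPD30, as the macrophage marker sum was (log2 fold change 4.76, edgeR adjusted p = 0.00347). *Itgb5*, whose integrin can release latent TGF-β, was at 23.2 to 45.5 CPM at E12.5, against 70.6 to 161 CPM at P0 without overlap (1.58, edgeR adjusted p = 0.00395). *Itgb8*, whose integrin with the αv chain is a main releaser of latent TGF-β1 and TGF-β3, was lower, at 14.0 to 30.2 CPM and 1.18 to 8.08 CPM (-1.99, edgeR adjusted p = 0.0161). The shared chain *Itgav* did not pass (-0.35, edgeR adjusted p = 0.354), nor did *Lrrc32*, *Thbs1* or *Furin*.

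Of the 8 matrix proteins that anchor latency proteins or bind TGF-β, 3 were called higher, 3 lower and 2 not (75% called, beside 27.9% of all genes tested, median 0.79). *Fbn2*, the fibrillin of embryonic microfibrils, fell by 4.28 on the log2 scale, from 195 to 394 CPM at E12.5 to 9.12 to 19.9 CPM at P0 (edgeR adjusted p = 5.65e-05). *Fbn1* (-1.55, edgeR adjusted p = 0.00451) and *Emilin1* (-1.96, 0.00185) were also lower. The markers of sclerotome (7 of 7) and skeletal muscle (5 of 5 tested) were called lower at P0 too, beside 12.0% of all genes tested. Their sums went from 132 to 187 CPM to 7.77 to 21.8 CPM and from 608 to 2618 CPM to 15.2 to 74.3 CPM. *Nkx3-2*, *Meox1* and *Uncx* (0 to 10 counts at P0), *Myod1* (3 to 9) and *Myog* (2 to 12) passed the filter only through E12.5. They could not be called higher. All but *Foxc2*, *Meox2* and *Ttn* needed E12.5 litters to pass, so these counts of calls are not drawn on. The part of sclerotome and muscle cells in the fibrillin levels was not tested. *Fn1*, fibronectin, rose from 495 to 1496 CPM to 2015, 3647, 11033 and 10699 CPM (2.74, edgeR adjusted p = 0.00607). The small proteoglycan genes *Fmod* (2.36, edgeR adjusted p = 0.00898) and *Bgn* (2.22, 0.0012) rose as well, with *Fmod* at 456, 403, 1029 and 1415 CPM and *Bgn* at 256, 437, 494 and 753 CPM in the P0 litters. *Fn1* and *Fmod* were higher in NPD28 and NPD30 than in NPD26 and NPD27, as *Ltbp1* and *Ltbp3* were. *Fmod* is also 1 of the 6 tendon and annulus markers.

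Of the 12 Smads and Smad regulators, 0 were called higher by edgeR, DESeq2 or limma-voom, also at an unadjusted p under 0.05 in edgeR, and edgeR called 2 lower (median log2 fold change -0.33). The calls make up 16.7% of the list, beside 27.9% of all genes tested (16.0% higher and 12.0% lower). Those were the inhibitory Smads, *Smad6* at 11.5 to 24.6 CPM and 4.76 to 10.3 CPM (-1.28, edgeR adjusted p = 0.0205) and *Smad7* at 20.8 to 45.8 CPM and 13.1 to 20 CPM (-0.93, edgeR adjusted p = 0.0413). The *Smad6* call ended without NPD9.2 (-1.14, edgeR adjusted p = 0.0579), NPD27 (-1.09, 0.058) or NPD28 (-1.22, 0.05), and the *Smad7* call without NDP10.2 (-0.80, 0.0934), NPD9.2 (-0.83, 0.0968), NPD26 (-0.80, 0.108), NPD27 (-0.97, 0.0696), NPD28 (-0.98, 0.0608) or NPD30 (-0.98, 0.0514). The list thus had 0 or 1 call lower in all of these fits. Without NPD28 the 1 call was of a gene other than *Smad6* and *Smad7*. The signal carriers *Smad2* (-0.11, edgeR adjusted p = 0.796), *Smad3* (-0.79, 0.109) and *Smad4* (-0.46, 0.114) did not pass. *Smad4* was lower at P0 without overlap (118 to 140 CPM against 81.6 to 115 CPM), as were 14.4% of all genes tested. *Smad3* was at 25.8, 29, 62.9 and 24.7 CPM at P0, and only NPD28 lay within the E12.5 range of 40.6 to 78.9 CPM. Upper quartile normalization called 4 of the list lower.

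Of 12 genes that TGF-β is known to induce or, for *Id1*, to regulate according to cell type, 5 were called higher, 1 lower and 6 not (50% called, beside 27.9% of all genes tested, median 1.34). The 50% includes *Cdkn2b*, whose call is set aside below. *Junb*, a transcription factor gene, was at 4.59 to 11.3 CPM at E12.5, against 37.1 to 107 CPM at P0, lowest in NPD30 (3.44, edgeR adjusted p = 0.00032). *Col1a1*, the main collagen chain of bone and annulus, was at 1131, 365, 235 and 1272 CPM and 2845, 6890, 6643 and 11487 CPM, highest in NPD30 (3.21, edgeR adjusted p = 0.00402). The osteoblast markers given above (1075 to 1836 CPM at P0, at most 248 CPM at E12.5) were highest in NPD30 too, and the part of such cells in the *Col1a1* level was not tested. *Lox*, a collagen crosslinking enzyme, was at 11.1 to 38.1 CPM and 67.9 to 125 CPM (2.08, edgeR adjusted p = 0.00252). *Cdkn2b*, a cell cycle inhibitor, had 1 to 10 counts at E12.5 and 14 to 59 at P0 (2.42, edgeR adjusted p = 0.0372). At E12.5 only NDP10.2 reached 10 counts, so the gene needed the P0 litters to pass the filter, and its call is not drawn on. That call ended without NPD3 (2.24, edgeR adjusted p = 0.102), NPD4 (2.11, 0.085), NPD9.2 (2.11, 0.0974), NPD27 (2.43, 0.065) or NPD30 (1.85, 0.121), the log2 fold change was 3.43 without NDP10.2, and with NPD3, NPD4 or NPD30 left out only 3 of the list were called higher. *Tagln*, a smooth muscle actin-binding protein gene, was called higher (1.81, edgeR adjusted p = 0.0245), but not without NPD3 (1.75, 0.0705), NPD4 (1.57, 0.0517), NPD9.2 (1.74, 0.0712), NPD26 (1.74, 0.0565) or NPD30 (1.31, 0.0517). *Id1* was called lower (-1.24, edgeR adjusted p = 0.00248). *Ctgf* (-0.85, edgeR adjusted p = 0.216) and *Tgfbi* (0.38, 0.356), which are often read as outputs of the pathway, did not pass.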

How the data were processed

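RNA-Seq libraries of 8 litters, 4 at E12.5 and 4 at P0, were analysed, with stages taken from the labels. The authors deposited raw read counts, 1 value per gene and litter, made by aligning single-end reads with STAR (2.4.0j in the submitters' processing notes) to GRCm38.p3 and counting on GENCODE M4 genes with htseq-count. Between 22.6% and 34.8% of the reads tallied fell on a gene, and ambiguous and unassigned reads were left out of library sizes. Lower depth and ambiguous reads (10.6% to 17.5% at E12.5, 7.07% to 10.5% at P0) limit the precision of low genes. No column of another sample was present.

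Members, lists and alternatives were chosen with earlier results of these data known. Genes passing filterByExpr (minimum count 10, minimum total 15) were tested with edgeR 4.0.16 in R 4.3.3 (TMM, robust quasi-likelihood F-test, Benjamini-Hochberg adjustment over 15467 genes). The scripts were tested on simulated data. CPM uses TMM-scaled library sizes, and levels per kb use merged M21 exons, a later annotation than the one counted on. Symbols were matched for 42462 identifiers. Within a list, up to 4 genes called at an adjusted p under 0.05 with the largest log2 fold change are described, others by count. Genes added after their values were seen are *Fbn1*, *Emilin1*, *Tagln*, *Id1* and the uncalled list genes. Some genes these rules select are not reported here. Genes like an isoform were sought at a mean log2 CPM of at least 4. Alternatives were DESeq2 1.42.0, limma-voom (limma 3.58.1), other normalizations and filters, downsampling, litters left out and the longest transcript as length.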

Additional observations from a re-analysis of the deposited data

Results flagged for a closer look

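Of 106 sets of 4 litters checked, 6 held a litter whose gap to the others passed Dixon's 95% limit for 4 values, where chance gives about 1 in 20. The log2 CPM of *Tgfb3* was 4.93 in the E12.5 litter NPD4 and 5.53 to 5.59 in the other E12.5 litters. The log2 CPM of *Tgfbr2* was 5.80 in NPD4 and 6.07 to 6.09 in the others. The log2 CPM of *Itgb5* was 4.56 in NPD4 and 5.37 to 5.52 in the others. The log2 summed CPM of the leukocyte markers was 8.62 in the P0 litter NPD30 and 11.70 to 12.12 in the other P0 litters. That of the neutrophil markers was 12.71 in NPD28 and 9.58 to 9.93 in the others. That of the osteoblast markers was 10.84 in NPD30 and lower in the others, from 10.07 upwards.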

How the results depend on the processing

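In 18 alternative settings *Tgfb1* kept its call and direction (log2 fold change 3.32 to 4.31), as did *Tgfbr2* (1.82 to 2.19). With limma-voom 0 of the 9 members tested were called lower, *Ltbp4* being at -1.16 (adjusted p = 0.0719). With the E12.5 litters NDP10.2 and NPD9.2 left out 0 members were called lower, the pathway lists held 4 genes called lower, and 1493 of all genes were called higher and 1088 lower. The sign turned for *Tgfb3* (-0.50 to 0.13 with 1 litter left out at a time) without NPD26 (0.07), without NPD27 (0.13) and without NDP10.2 and NPD9.2 (0.01), and for *Tgfbr1* in that last setting (-0.10), with no call in any of them. The cause was not tested.

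With 1 litter left out at a time, 2084 to 2586 of all genes were called higher and 1512 to 1943 lower, 2 to 3 members higher and 0 to 1 lower, and 10 to 12 list genes higher and 6 to 8 lower. The third member called higher was *Ltbp2*, which entered those fits only through 3 high P0 litters, so its calls there support nothing. Upper quartile normalization shifted the median log2 fold change of all genes from 0.04 to -0.11 and called 2105 higher and 2322 lower, with *Tgfb1*, *Tgfbr2* and *Ltbp4* still called. No paired analysis was possible because the litters carry no number shared between the stages. Depth limits *Ltbp2*, *Lrg1* and *Cdkn2b*, whose E12.5 counts were near the floor.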
